A study of Mus musculus with 9 samples.

Results

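The genes described here are 33 mouse genes of glycolysis, lactate handling and the hypoxia response. They are selected by name, with no measured value in the rule, although the set was proposed with earlier results of these data known. Every row of the array table whose single gene symbol is one of these names counts as a member. Of the 33 genes, 31 had such a row, 73 rows among 45101 in the table. Gpi1 and Eno1 had none and were not analysed here. The 3 rows of Gapdh are control rows of the array and were read apart from the test. The other 30 genes had 70 probe sets, of which 62 passed the filter on low signals and 8 did not. Each of these 30 genes kept at least 1 probe set and was tested, among 11671 genes in all.

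The study profiled mouse thymus tumors, tumors labelled as XIST resistant (called resistant tumors here) and normal thymus, with 3 Affymetrix Mouse430_2 arrays for each. XIST is a noncoding RNA that coats and silences an X chromosome in female cells. Values are MAS5 signals in arbitrary units, which have no meaning as a level between different probe sets. Strain, genotype, treatment and age are not given in the labels, and neither is the number of animals behind each group. The spread that the p-values rest on is therefore that of the arrays, and it could be technical.

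The array medians of the signal were 13.9 to 25.8. In 4 arrays (tumor 1, resistant tumors 1 and 2, normal thymus 1) the poly-A spike-in controls gave a mean signal of 1.997 to 2.96, while the other 5 arrays had 102 to 173, so both sets held all 3 groups. Tumor 1 belongs to the first set only if its control rows, which stood in another order than on the other arrays, are read in name order. Its array median of 24.8 lay within the 23.6 to 25.8 of the other arrays of that set, against 13.9 to 17.8 in the second set. Markers of the labelled tissue were checked first. Of 14 tested thymocyte markers, 8 were called lower and 1 higher in tumors, and the same counts held in resistant tumors. Over all tested genes 19.1% were lower and 23.3% higher in tumors, and 20.2% and 23.1% in resistant tumors. Cd2, Cd8a and Cd8b1 were under the array median on every tumor and resistant tumor array. The thymocyte markers summed to 19233.6 to 20583 in tumors and 18066.5 to 20857.5 in resistant tumors, against 26032.7 to 28669.2 in normal thymus. Of 12 thymic epithelial markers 10 were called lower in each kind of tumor, with a summed signal of 170 to 450 in tumors and 186 to 278 in resistant tumors, against 7638 to 8095 in normal thymus. In bulk samples such as these, fewer cells of a type and less RNA per cell cannot be told apart.

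Glycolysis splits glucose into pyruvate, and lactate dehydrogenase can reduce that pyruvate to lactate, which lets the pathway run without oxygen. Hypoxia-inducible factor, or HIF, is a pair of subunits whose alpha chain is marked for destruction by oxygen-dependent prolyl hydroxylases. When oxygen is low the alpha chain persists, and the factor binds promoters and enhancers that carry the core letters ACGTG or GCGTG, among them those of many glycolytic genes. Dividing thymocytes and T cell tumors are known for high glucose uptake.

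Promoters of members are shown first, because the HIF core is the sequence by which these genes are usually grouped. The counts of windows cover every member with a window, whether or not it changed or was tested. Since the members were chosen as genes of glycolysis and hypoxia, these counts describe the list and not the arrays. RefSeq windows of 300 bases (250 before and 50 after an annotated start, build GRCm38.p6) were found for 31 of the 33 genes, 45 windows in all, and none was given for Slc2a3 and Ndrg1. The letters ACGTG or GCGTG stood on either strand in 37 of the 45 windows, or 82.2%, against 61.6% of the 12099 windows of the tested genes and 43.8% of all 32851 windows. The E-box CACGTG, which contains ACGTG on both strands, stood in 6 of the 45 windows (13.3%), against 9.79% and 7.15%. At least 1 match was found for 29 of the 31 genes, and the windows of Tpi1 and Gpi1 had none. A match is a description of letters and not a bound site. In the lines that follow, capitals mark the matches to ACGTG or GCGTG, which read CACGT or CACGC where they lie on the opposite strand, and each sequence runs 5′ to 3′ along its gene. Slc2a1 (chr4:119108495-119108794, plus strand), Slc16a3 (chr11:120948817-120949116, plus strand) and P4ha1 (chr10:59323046-59323345, plus strand) stand for a glucose carrier, a lactate exporter and a hypoxia target that were higher in both kinds of tumor. Ldha (chr7:46845554-46845853, plus strand) had the most matches among the members, 7, and Ldhb (chr6:142507908-142508207, minus strand), its partner that was lower, had 1. Each E-box in the Ldha window was counted on both strands, so its matches outnumber the marked stretches. Tpi1 (chr6:124814109-124814408, minus strand) was higher in both kinds of tumor and had none.
Slc2a1: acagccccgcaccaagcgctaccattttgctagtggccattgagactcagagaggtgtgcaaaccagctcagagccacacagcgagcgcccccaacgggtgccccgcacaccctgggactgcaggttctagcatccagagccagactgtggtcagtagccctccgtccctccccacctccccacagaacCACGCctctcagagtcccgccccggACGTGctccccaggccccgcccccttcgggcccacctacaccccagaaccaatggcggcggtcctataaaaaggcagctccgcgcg
Slc16a3: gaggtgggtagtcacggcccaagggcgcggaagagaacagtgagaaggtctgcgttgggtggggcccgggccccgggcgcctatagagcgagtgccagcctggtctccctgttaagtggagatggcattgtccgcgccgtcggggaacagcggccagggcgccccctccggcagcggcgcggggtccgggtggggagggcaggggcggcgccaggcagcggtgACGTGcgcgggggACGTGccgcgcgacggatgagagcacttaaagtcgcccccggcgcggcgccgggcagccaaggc
P4ha1: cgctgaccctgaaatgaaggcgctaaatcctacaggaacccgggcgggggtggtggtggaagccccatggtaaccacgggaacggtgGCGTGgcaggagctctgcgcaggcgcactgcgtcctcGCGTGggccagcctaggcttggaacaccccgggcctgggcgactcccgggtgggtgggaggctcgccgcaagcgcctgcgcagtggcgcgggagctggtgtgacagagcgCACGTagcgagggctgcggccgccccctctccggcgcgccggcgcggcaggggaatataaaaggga
Ldha: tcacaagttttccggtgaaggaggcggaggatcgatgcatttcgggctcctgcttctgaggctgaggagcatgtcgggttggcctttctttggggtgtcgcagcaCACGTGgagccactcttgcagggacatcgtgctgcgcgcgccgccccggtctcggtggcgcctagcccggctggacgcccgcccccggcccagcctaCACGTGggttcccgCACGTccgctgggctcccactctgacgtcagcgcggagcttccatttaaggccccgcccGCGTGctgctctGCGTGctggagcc
Ldhb: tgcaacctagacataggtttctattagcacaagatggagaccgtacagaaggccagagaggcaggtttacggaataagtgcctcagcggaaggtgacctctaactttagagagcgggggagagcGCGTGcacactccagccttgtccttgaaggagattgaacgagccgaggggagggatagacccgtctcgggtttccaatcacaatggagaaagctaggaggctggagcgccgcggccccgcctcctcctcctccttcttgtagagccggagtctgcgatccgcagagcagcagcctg
Tpi1: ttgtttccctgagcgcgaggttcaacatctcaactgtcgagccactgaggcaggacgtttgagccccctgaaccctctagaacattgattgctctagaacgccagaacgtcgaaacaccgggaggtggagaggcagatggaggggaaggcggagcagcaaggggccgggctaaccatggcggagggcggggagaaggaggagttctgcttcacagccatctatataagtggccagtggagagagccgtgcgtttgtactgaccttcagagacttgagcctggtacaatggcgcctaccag

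Most of the 30 tested genes were higher in tumors than in normal thymus. By limma, 23 were called higher (adjusted p under 0.05), against 23.3% of all tested genes, and 2 were called lower, against 19.1%. The median log2 change was 1.24, beside 0.05 over all genes tested, and 17 of the members called rose by at least 1. In 25 members the tumor and normal arrays did not overlap, where 55.3% of all tested genes showed the same. Against the same normal arrays, resistant tumors had 21 members higher (23.1% of all tested genes) and 1 lower (20.2%), with a median of 1.26 beside 0.06 over all genes. Their arrays did not overlap with normal thymus for 24 members, against 54.6% of all tested genes. Both comparisons share their normal arrays, so their calls are not independent.

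The number of calls depended on the scale of the arrays. When all array medians were set equal, which moved the median change of all genes to 0.24 in tumors and 0.00 in resistant tumors, 15 members were called in tumors (19.6% of all genes) and 9 in resistant tumors (17.4%), all of them higher. Over all genes, 878 were then called higher and 1156 lower in resistant tumors, against 2696 higher and 2353 lower on the deposited scale. With equal medians alone, the tumor calls of Pfkm, Pgk1, Ldha, Pfkfb4, Ankrd37 and Higd1a were lost, and so were the resistant tumor calls of these 6 genes and of Slc2a1, Aldoa, Ldhb, Ndrg1 and Bnip3. The changes themselves moved by the same amount for every gene, since the step shifts whole arrays. The log2 change of Pfkm in tumors was 1.41 with equal medians, beside 1.22 on the deposited scale, that of Ldha was 0.92 beside 0.73, and that of Slc2a1 in resistant tumors was 1.59 beside 1.65. The calls of Hk2, Pfkl, Tpi1, Pgam1, Pkm, Slc16a3, Egln3, Vegfa and P4ha1 held in both kinds of tumor under every tested alternative.

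Each probe set was also tested by itself. In tumors 43 of the 62 probe sets were called higher and 4 lower, against 19.6% and 16.3% of all 20917 probe sets. In resistant tumors 40 were called higher and 4 lower, against 19.5% and 17.2%. Of the 17 genes with more than 1 probe set past the filter, 16 had the same sign in all their probe sets in tumors and 16 in resistant tumors. The exception was Pdk1 in both. The size of a change differed more between probe sets than its sign. The 3 probe sets of Pgk1, a kinase of lower glycolysis, gave log2 changes of 0.53 to 1.70 in tumors, and the brightest of them, used for the gene, gave the smallest.

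**Figure D1:**
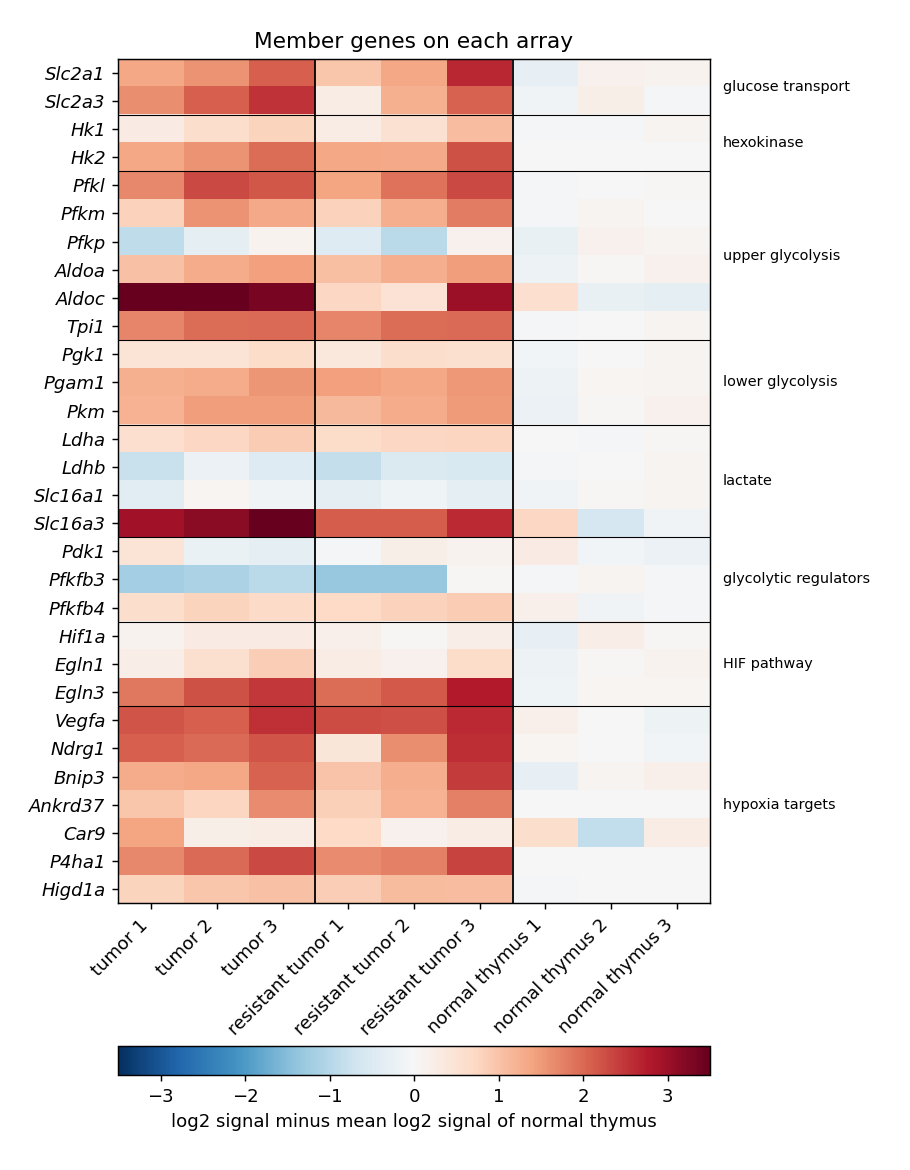
Log2 signal of the 30 tested members on each of the 9 arrays, minus the mean log2 signal of the 3 normal arrays; columns run from tumor to resistant tumor to normal thymus, rows are grouped by role, and the darkest red includes values past the end of the scale. Most rows are red in all 6 tumor columns, Ldhb and Pfkfb3 are blue in most of them, and resistant tumor 3 is the darkest resistant column in most rows.

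Both glucose carriers rose. Slc2a1, the carrier GLUT1 of most dividing cells, had signals of 357, 411 and 592 in tumors, 275, 353 and 864 in resistant tumors, and 114, 156 and 152 in normal thymus. Every tumor and resistant tumor array stood above the normal arrays, and resistant tumor 3 was the highest of all. The log2 change was 1.67 ± 0.38 in tumors (adjusted p = 0.00564 by limma) and 1.65 ± 0.38 in resistant tumors (adjusted p = 0.00601). After a log2 change, ± is the moderated SE of limma, with the spread pooled over all 3 groups of 3 arrays. Slc2a3, the carrier GLUT3, a high-affinity form found in neurons and lymphocytes, had 827, 1140 and 1542 in tumors, 319, 630 and 1126 in resistant tumors, and 246, 305 and 254 in normal thymus. Resistant tumor 1 lay close to the normal arrays, and the resistant arrays spread over more than the tumors did. Slc2a3 rose by 2.08 ± 0.39 in tumors (limma adjusted p = 0.00216) and by 1.19 ± 0.39 in resistant tumors (adjusted p = 0.0331). The call in resistant tumors was lost without resistant tumor 2, resistant tumor 3 or any 1 of the normal arrays (limma adjusted p = 0.0611 to 0.0861), with a log2 change of 0.75 without resistant tumor 3.

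The hexokinases, which trap glucose in the cell by phosphorylating it, both rose, and the fitted change was larger for Hk2. Hk2, the isoform induced in muscle by insulin and in many tumors, had 181, 210 and 276 in tumors, 182, 177 and 333 in resistant tumors, and 71.8, 69.9 and 70.5 in normal thymus. The normal arrays were nearly identical and lay far below the others. Hk2 rose by 1.63 ± 0.25 in tumors (limma adjusted p = 0.000626) and by 1.64 ± 0.25 in resistant tumors (adjusted p = 0.00061). Hk1, the broadly expressed isoform, rose by 0.56 ± 0.20 (limma adjusted p = 0.0456) in tumors and by 0.62 ± 0.20 (adjusted p = 0.0301) in resistant tumors. Its call in tumors was lost without tumor 2, tumor 3, resistant tumor 2 or any 1 normal array (limma adjusted p = 0.0627 to 0.154), and in resistant tumors without resistant tumor 2, resistant tumor 3 or any 1 normal array (adjusted p = 0.0583 to 0.0837).

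In upper glycolysis, 5 of 6 tested genes rose in tumors and 4 in resistant tumors, beside 23.3% and 23.1% of all tested genes. The isoforms of phosphofructokinase, the enzyme that commits sugar to glycolysis, were not all called. Pfkl, the liver isoform, had 843, 1325 and 1197 in tumors, 692, 993 and 1302 in resistant tumors, and 255, 269 and 270 in normal thymus. It rose by 2.06 ± 0.23 in tumors (limma adjusted p = 9.28e-05) and by 1.86 ± 0.23 in resistant tumors (adjusted p = 0.000174). Pfkm, the muscle isoform, rose by 1.22 ± 0.25 and 1.29 ± 0.25. Pfkp, the platelet isoform, was not called, and its signals overlapped between groups, with 176, 262 and 360 in tumors, 239, 171 and 367 in resistant tumors, and 276, 365 and 351 in normal thymus. Tpi1, which interconverts the triose phosphates, had the smallest adjusted p of the members, with 2111, 2461 and 2543 in tumors, 2112, 2489 and 2526 in resistant tumors, and 614, 628 and 680 in normal thymus. It rose by 1.88 ± 0.11 in tumors (limma adjusted p = 1.75e-06) and by 1.89 ± 0.11 in resistant tumors (adjusted p = 2.25e-06).

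The aldolases, which split the sugar into triose phosphates, gave the widest contrast between the tumor groups. Aldoa, the muscle and broadly expressed isoform, rose by 1.25 ± 0.14 in tumors and by 1.26 ± 0.14 in resistant tumors (limma adjusted p = 0.000119 and 0.000118). Aldoc, the brain isoform, had 202, 175 and 156 in tumors, 25.6, 22.0 and 123 in resistant tumors, and 23.4, 12.96 and 12.3 in normal thymus. The tumors stood above all other arrays, resistant tumor 3 lay next to them, and the other resistant arrays lay at the level of normal thymus 1. Aldoc was under the array median on all normal arrays and was at least 8.90-fold higher in tumors (limma adjusted p = 0.000957). In resistant tumors it was not called (adjusted p = 0.0729, n = 3 arrays per group). Blocking on the spike-in set it was called there (limma adjusted p = 0.0370), as without resistant tumor 2 (adjusted p = 0.0357), and its adjusted p was 1.73e-05 to 0.194 over the 20 tested alternatives. The lowest value comes from the arrays with spike-in signal alone, where resistant tumor 3 is the only resistant array and is assumed to vary like the other groups.

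Lower glycolysis rose in all 3 tested genes and in both kinds of tumor, beside 23.3% and 23.1% of all tested genes. Pgam1, a phosphoglycerate mutase, had 1109, 1140 and 1349 in tumors, 1250, 1192 and 1336 in resistant tumors, and 412, 490 and 496 in normal thymus. The tumor and resistant tumor arrays overlapped with each other and lay far above normal thymus. Pgam1 rose by 1.36 ± 0.11 in tumors (limma adjusted p = 1.74e-05) and by 1.44 ± 0.11 in resistant tumors (adjusted p = 1.31e-05). Pkm, the pyruvate kinase that makes pyruvate and ATP, rose by 1.38 ± 0.13 and 1.30 ± 0.13. Pgk1, the phosphoglycerate kinase on the X chromosome, rose by 0.53 ± 0.10 and 0.52 ± 0.10 (limma adjusted p = 0.0018 and 0.00206), with 3116, 3140 and 3506 in tumors, 2919, 3481 and 3291 in resistant tumors, and 2089, 2259 and 2418 in normal thymus.

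Gapdh, the dehydrogenase between the triose phosphates and Pgk1, was read here only from 3 control rows. Probe sets that list Gapdh together with other symbols were left out by the rule of a single symbol. Its 3′ row had 3553 and 3795 in tumors 2 and 3, 3598, 4201 and 3610 in resistant tumors, and 3011, 2466 and 2660 in normal thymus. In tumor 1 the 64 control rows stood in another order than on the other arrays, with a correlation with the mean of the others of -0.295 as deposited and 0.907 once put in name order, so tumor 1 was left out here. On all 3 rows the 5 remaining arrays lay above the normal arrays, with log2 differences of 0.44 to 0.68 for tumors 2 and 3 and of 0.49 to 0.67 for resistant tumors. These rows entered no test.

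Genes of lactate went in both directions. Ldha, the lactate dehydrogenase subunit that favours pyruvate reduction, had 2378, 2613 and 2909 in tumors, 2474, 2622 and 2668 in resistant tumors, and 1557, 1545 and 1634 in normal thymus. It rose by 0.73 ± 0.09 in tumors (limma adjusted p = 0.000174) and by 0.71 ± 0.09 in resistant tumors (adjusted p = 0.000216). Ldhb, the subunit that favours lactate oxidation, had 989, 1484 and 1246 in tumors, 956, 1187 and 1173 in resistant tumors, and 1611, 1672 and 1824 in normal thymus, so the normal arrays were highest without overlap. Ldhb changed by -0.48 ± 0.15 in tumors (limma adjusted p = 0.0281) and by -0.63 ± 0.15 in resistant tumors (adjusted p = 0.00773). The call in tumors was lost without tumor 1, tumor 3, normal thymus 2 or normal thymus 3 (limma adjusted p = 0.0646 to 0.0947), and both Ldhb calls were lost with equal array medians (adjusted p = 0.684 in tumors and 0.299 in resistant tumors). With its 4 probe sets tested separately, Ldhb was called lower on 3 in tumors and on 4 in resistant tumors.

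The lactate carriers differed as well. Slc16a3, the exporter MCT4 of glycolytic muscle and tumors, had 59.8, 70.3 and 112 in tumors, 34.4, 34.4 and 47.7 in resistant tumors, and 12.97, 5.22 and 7.17 in normal thymus. The groups stood in that order without overlap, and normal thymus was under the array median on all 3 arrays. Slc16a3 was at least 3.92-fold higher in tumors (limma adjusted p = 0.000116) and at least 1.93-fold higher in resistant tumors (adjusted p = 0.00108). Slc16a1, the carrier MCT1 that moves lactate either way, was not called in either comparison on the deposited scale, with 1047, 1458 and 1280 in tumors, 1105, 1249 and 1102 in resistant tumors, and 1261, 1416 and 1474 in normal thymus. After quantile normalization it was called lower in resistant tumors, at -0.35 (limma adjusted p = 0.0234), as with the replicate number as a block (adjusted p = 0.0432). On the arrays with spike-in signal alone its change there was -0.39, with resistant tumor 3 as the only resistant array. Over the 20 tested alternatives the limma adjusted p of Slc16a1 in resistant tumors reached 0.647.

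**Figure D2:**
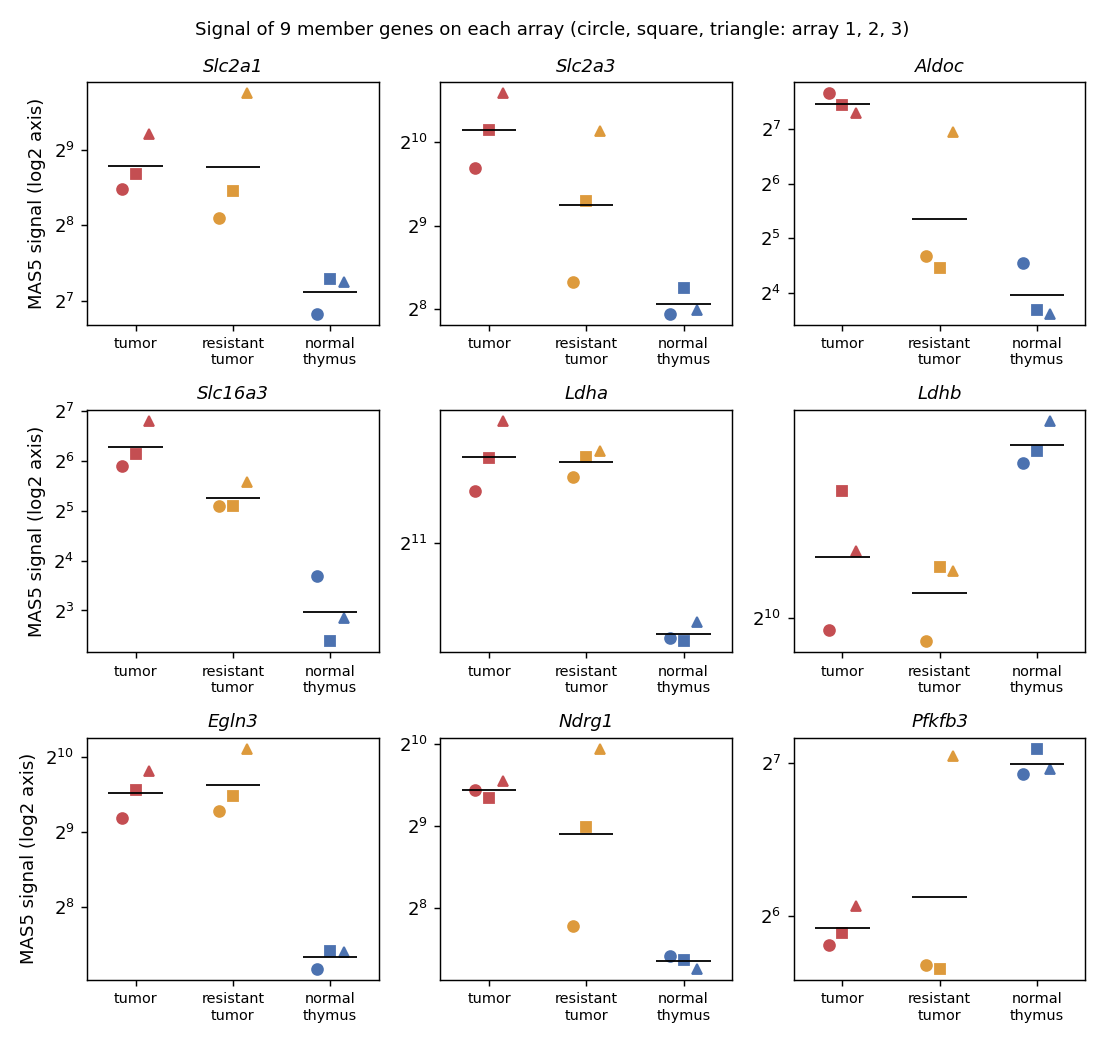
MAS5 signal of 9 members on each array, on a log2 axis that differs between panels; circle, square and triangle are arrays 1, 2 and 3, and the line is the mean log2 signal of a group. Aldoc and Slc16a3 show tumors above resistant tumors, Ldhb shows normal thymus highest, and in Slc2a1, Ndrg1 and Pfkfb3 resistant tumor 3 stands apart from the other resistant arrays.

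The regulators of glycolysis did not move as a group. Pfkfb3 and Pfkfb4 make and break fructose 2,6-bisphosphate, the activator of phosphofructokinase. Pfkfb4 rose by 0.69 ± 0.14 in tumors (limma adjusted p = 0.00316) and by 0.80 ± 0.14 in resistant tumors (adjusted p = 0.00141). Pfkfb3, the isoform with the strongest kinase activity, had 56.1, 59.4 and 66.9 in tumors, 51.2, 50.4 and 132 in resistant tumors, and 122, 137 and 125 in normal thymus. Tumors lay well below normal thymus, and so did resistant tumors 1 and 2, whereas resistant tumor 3 was among the normal arrays. Pfkfb3 changed by -1.07 ± 0.33 in tumors (limma adjusted p = 0.0243), a call lost without tumor 1, tumor 2 or any 1 normal array (adjusted p = 0.0524 to 0.0757). In resistant tumors its change of -0.87 ± 0.33 was not called (limma adjusted p = 0.0557), but it was without resistant tumor 3, at -1.33 (adjusted p = 0.000229), with adjusted p of 0.000229 to 0.925 over the 20 tested alternatives. Pdk1, the kinase that shuts pyruvate out of the mitochondrion, had 1066, 648 and 619 in tumors, 748, 880 and 829 in resistant tumors, and 937, 716 and 669 in normal thymus, with groups that overlapped and changes of -0.02 ± 0.21 and 0.09 ± 0.21.

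Within the HIF pathway, the oxygen-regulated alpha subunit gene itself was not called. Hif1a had 1096, 1233 and 1222 in tumors, 1128, 1029 and 1172 in resistant tumors, and 820, 1183 and 1037 in normal thymus, and changed by 0.24 ± 0.13 in tumors (limma adjusted p = 0.181) and by 0.15 ± 0.13 in resistant tumors (adjusted p = 0.413). The array reads transcripts, whereas oxygen acts on the HIF-1 alpha protein. When the spike-in set was a block, Hif1a was called in tumors (limma adjusted p = 0.0401, against 0.0401 to 0.546 over the 20 tested alternatives). Egln3, a prolyl hydroxylase gene that HIF itself induces, had 584, 757 and 903 in tumors, 620, 715 and 1107 in resistant tumors, and 144, 170 and 169 in normal thymus. Egln3 rose by 2.19 ± 0.22 in tumors (limma adjusted p = 5.62e-05) and by 2.29 ± 0.22 in resistant tumors (adjusted p = 4.38e-05). Egln1, the main hydroxylase of HIF-1 alpha in normal oxygen, rose by 0.55 ± 0.18 in tumors (limma adjusted p = 0.0363) and was not called in resistant tumors, at 0.35 ± 0.18 (adjusted p = 0.154). In resistant tumors Egln1 was called higher when the spike-in set was a block, at 0.48 (limma adjusted p = 0.00284), and with the mean over its probe sets, at 0.49 (adjusted p = 0.0265), with adjusted p of 0.00284 to 0.737 over the 20 tested alternatives. The tumor call of Egln1 was lost without tumor 2, tumor 3 or any 1 normal array (limma adjusted p = 0.0536 to 0.137). Its other, dimmer probe set was called higher in the fit of probe sets in both kinds of tumor. That probe set rose by 0.86 in tumors (limma adjusted p = 0.00295) and by 0.63 in resistant tumors (adjusted p = 0.0134).

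Of the 7 other hypoxia targets, 6 rose in both kinds of tumor, beside 23.3% of all tested genes in tumors and 23.1% in resistant tumors. Vegfa, the growth factor of blood vessels, had 132, 124 and 170 in tumors, 140, 140 and 177 in resistant tumors, and 32.8, 29.0 and 25.7 in normal thymus. No tumor or resistant tumor array came near the normal ones. Vegfa rose by 2.28 ± 0.18 in tumors (limma adjusted p = 1.21e-05) and by 2.38 ± 0.18 in resistant tumors (adjusted p = 1.01e-05). P4ha1, a collagen prolyl hydroxylase subunit, had 254, 314 and 393 in tumors, 252, 271 and 410 in resistant tumors, and 80.2, 79.1 and 78.5 in normal thymus, and rose by 1.99 ± 0.21 and 1.94 ± 0.21.

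Ndrg1, a stress-response gene induced by hypoxia, had 695, 648 and 750 in tumors, 220, 506 and 983 in resistant tumors, and 172, 166 and 154 in normal thymus. The resistant arrays spread widely, and resistant tumor 1 lay close to normal thymus. Ndrg1 rose by 2.09 ± 0.41 in tumors (limma adjusted p = 0.00292) and by 1.55 ± 0.41 in resistant tumors (adjusted p = 0.0136), or 1.03 without resistant tumor 3 (adjusted p = 0.0172). Bnip3, a mitophagy receptor, rose by 1.57 ± 0.35 in both, with 348, 366 and 592 in tumors, 282, 344 and 775 in resistant tumors, and 117, 153 and 160 in normal thymus. Ankrd37, a HIF target that encodes an ankyrin repeat protein, rose by 1.13 ± 0.28 and 1.27 ± 0.28, and Higd1a, a mitochondrial protein of hypoxia survival, by 0.92 ± 0.10 and 1.01 ± 0.10. Car9, the carbonic anhydrase used as a hypoxia marker in carcinomas, was not called, with 44.9, 19.6 and 20.7 in tumors, 27.8, 18.9 and 20.4 in resistant tumors, and 26.1, 9.41 and 20.6 in normal thymus.

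**Figure D3:**
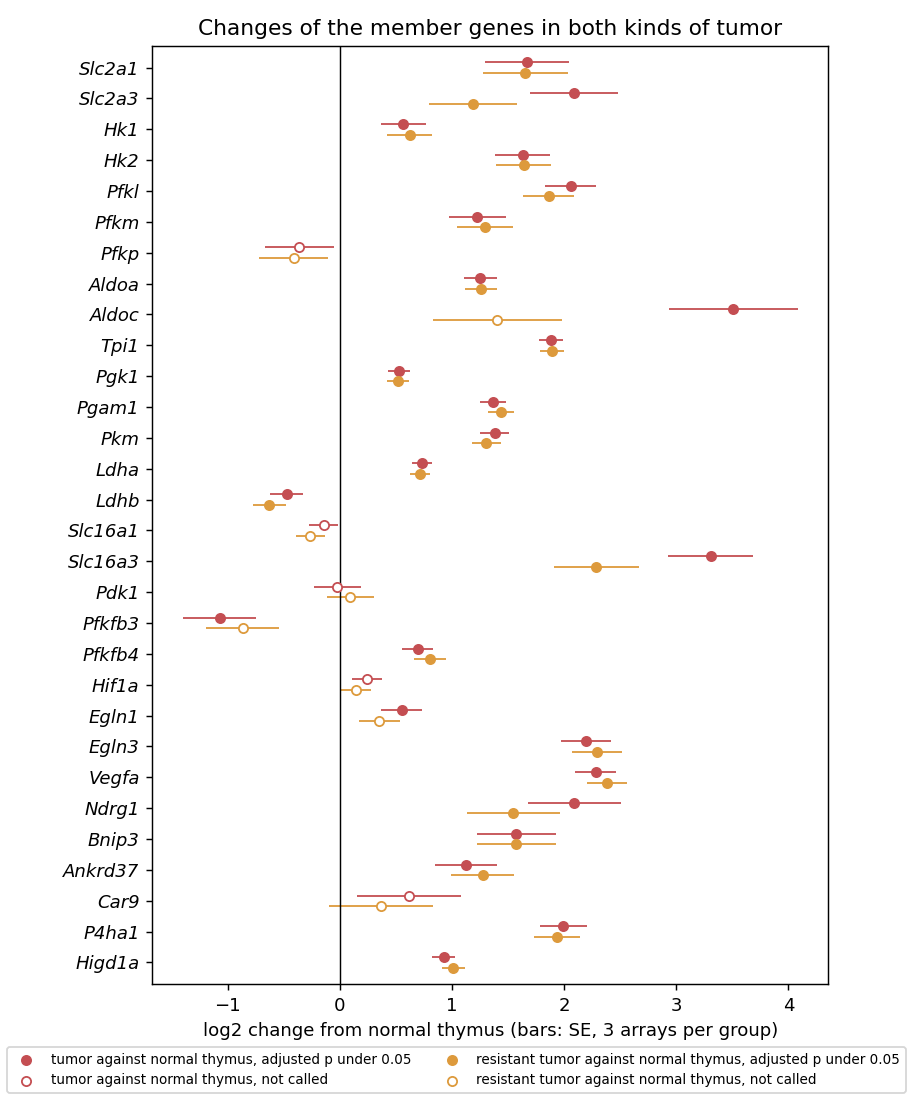
Log2 change of each tested member from normal thymus in tumors and in resistant tumors (3 arrays per group). Bars are the moderated SE of limma, with the spread pooled over all groups. Filled points have a limma adjusted p under 0.05. Points of both groups lie close together for most genes and far apart for Aldoc, and fitted changes of Aldoc and Slc16a3 are drawn although their normal arrays give only a bound.

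None of the 30 members was called between resistant tumors and tumors at an adjusted p under 0.05 by limma, where 0.36% of all tested genes were. At an unadjusted p under 0.05 there were 3 members (Aldoc, Slc16a3 and Slc2a3), against 7.23% of all tested genes. The groups did not overlap for 2 members, Aldoc and Slc16a3, both lower in resistant tumors, against 10.4% of all tested genes. The members' median was -0.01, beside -0.02 over all genes. Aldoc changed by -2.10 ± 0.57 (limma adjusted p = 0.260), Slc16a3 by -1.02 ± 0.38 (adjusted p = 0.544) and Slc2a3 by -0.89 ± 0.39 (adjusted p = 0.675). Without resistant tumor 3, Aldoc was called, at -2.90 (limma adjusted p = 0.00582), with adjusted p of 0.00582 to 0.720 over the 20 tested alternatives. On the 5 arrays with spike-in signal, Pfkfb3 was called, at 1.07 (limma adjusted p = 0.0152), but the resistant tumors are the single array resistant tumor 3 there, which is assumed to vary like the other groups.

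Tumor 1 and normal thymus 1 are the only arrays of their groups without spike-in signal. Resistant tumor 3 is the only resistant array with it. Within 1 group, a difference between the sets can therefore not be told apart from that of a single array. Across groups, deviations from the group means correlated at 0.362 to 0.654 between arrays of the same set. The difference of Aldoc ran unequally through the sets of arrays. It was -3.09 within the arrays without spike-in signal and -0.42 within those with it, while Slc16a3 gave -0.80 and -0.89. Ndrg1 had -1.06 and 0.50, Slc2a1 -0.19 and 0.81, and Pfkfb3 -0.14 and 1.07. Over the 30 members, 15 had the same sign in both sets. Against normal thymus the medians over the 30 members were 1.08 without and 1.30 with spike-in signal in tumors, and 0.98 and 1.41 in resistant tumors. In resistant tumors 26 of the 30 members had the same sign in both sets, and in tumors 29. No share over all tested genes stands beside these counts of signs. Aldoc in resistant tumors was at the level of normal thymus in the set without spike-in signal (25.6 and 22.0, against 23.4) and far above it in the other set (123, against 12.96 and 12.3). Pfkfb3 in resistant tumors changed by -1.26 without and 0.02 with spike-in signal.

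Within the groups, particular arrays were high or low for most members. Resistant tumor 3 was the highest resistant array for 24 of the 30 members, where it was highest for 45.4% of all tested genes. Tumor 1 was the lowest tumor for 24 members, where it was lowest for 44.2% of all genes, and tumor 3 was the highest for 20, against 26.8% of all genes. The median range within a group was 0.54 on the log2 scale in tumors, 0.52 in resistant tumors and 0.25 in normal thymus. Actb, whose 3′ to 5′ signal ratio is a sign of RNA integrity, had a ratio of 2.64 in resistant tumor 3 and of 1.96 and 1.98 in resistant tumors 1 and 2. It was 3.16 in tumor 2, 1.91 in tumor 3 and 1.92 in tumor 1 with its control rows read in name order, and 1.63 to 1.91 in normal thymus. The same ratio of Gapdh differed less, with 1.03 in resistant tumor 3, against 0.94 and 0.97 in resistant tumors 1 and 2. The Gapdh ratio was 0.94, 1.02 and 0.92 in tumors 1, 2 and 3, and 1.04 to 1.20 in normal thymus. The summed signal of the fibroblast markers was 8482 in resistant tumor 3, against 5008 and 3608 in resistant tumors 1 and 2, and 2867 in tumor 1, against 5401 and 6397 in tumors 2 and 3. That of the endothelial markers was 1151 in resistant tumor 3, against 818 and 774, and 715 in tumor 1, against 916 and 987. Resistant tumor 3 is also the only resistant array with spike-in signal, and tumor 1 the only tumor without it. Normal thymus 1, the only normal array without it, was the lowest normal array for 19 of 30 members, against 49.3% of all tested genes. The part of these measures in the order of the arrays was not tested.

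Markers of other cells were also compared between the groups that carry the main result. Their counts stand beside 23.3% of all tested genes higher and 19.1% lower in tumors, and 23.1% and 20.2% in resistant tumors. Fibroblast markers summed to 2867 to 6397 in tumors and 3608 to 8482 in resistant tumors, against 1298 to 1413 in normal thymus, and 5 of 10 rose in tumors and 7 of 10 in resistant tumors, with 1 lower there. Endothelial markers summed to 715 to 987 in tumors and 774 to 1151 in resistant tumors, against 570 to 597 in normal thymus, with 5 of 12 higher and 1 lower in tumors and 7 higher and 1 lower in resistant tumors. The 10 macrophage markers summed to 1487 to 2548 in tumors and 1574 to 2929 in resistant tumors, against 2224 to 2713 in normal thymus. Skeletal muscle is a tissue rich in Pfkm and Aldoa. Its markers summed to 250 to 856 in tumors and 137 to 532 in resistant tumors, against 764 to 821 in normal thymus. Of 9 muscle markers 1 was lower in tumors, a share below that of all tested genes, and 5 were lower in resistant tumors. The 1 tested erythroid marker was lower in both, and adipocyte markers summed to 483 to 801 in tumors and 720 to 1284 in resistant tumors, against 695 to 836 in normal thymus. The part of these cells in the changes of the members was not tested.

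Isoform pairs of the same step were compared within arrays, as the log2 signal of the first gene minus that of the second, so that the scale of an array cancels. Probe sets of 1 gene also gave unequal changes, such as 0.53 to 1.70 for Pgk1 in tumors. Unequal changes of isoforms were therefore not separated from unequal responses of probe sets. There were 10 pairs and 30 two-sided exact permutation tests, and 3 arrays against 3 cannot give a p below 0.1, so no test could pass (lowest adjusted p = 0.130). Ldha minus Ldhb was 1.10 ± 0.25 in tumors and 1.23 ± 0.12 in resistant tumors, against -0.11 ± 0.06 in normal thymus (SD, n = 3, exact permutation p = 0.1 for each). The difference from normal thymus was 1.21 in tumors and 1.34 in resistant tumors, with no overlap. Hk2 minus Hk1 differed by 1.06 and 1.02, and Pfkl minus Pfkp by 2.42 and 2.28, again without overlap. Pfkl minus Pfkm differed by 0.83 in tumors and 0.57 in resistant tumors, and Egln3 minus Egln1 by 1.64 and 1.94. Slc16a1 minus Slc16a3 was lower than in normal thymus on every tumor and resistant tumor array, with no size given since Slc16a3 has only a bound in normal thymus. Pfkp minus Pfkm differed by -1.59 and -1.71, and Pfkfb3 minus Pfkfb4 by -1.76 and -1.67.

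Between resistant tumors and tumors, 5 of the 10 pairs had groups that did not overlap, in tests that could not pass. No share over other pairs of genes stands beside this count. Aldoc, Slc16a3 and Slc2a3, the members with an unadjusted limma p under 0.05 in this comparison, are each part of such a pair. Aldoa minus Aldoc was 5.87 ± 1.21 in resistant tumors, against 3.76 ± 0.40 in tumors (SD, n = 3), a difference of 2.11 (exact permutation p = 0.1). Against normal thymus, where Aldoc has only a bound, the pair is given no size. Slc2a1 minus Slc2a3 differed by 0.88 between resistant tumors and tumors and Slc16a1 minus Slc16a3 by 0.90, and Pfkl minus Pfkm differed by -0.26 and Egln3 minus Egln1 by 0.30 (exact permutation p = 0.1 for each).

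**Figure D4:**
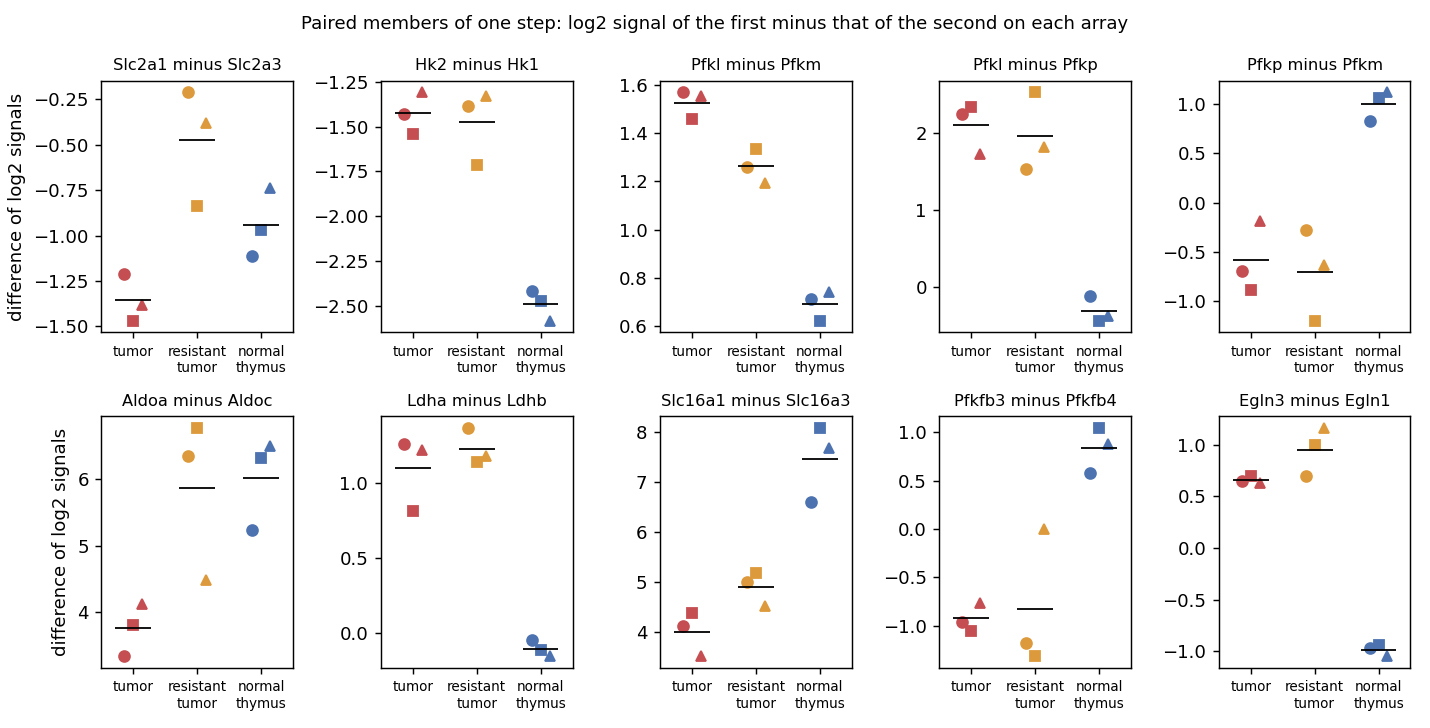
Difference of log2 signals of paired members on each array; circle, square and triangle are arrays 1, 2 and 3, and the line is the mean of a group. Only differences between groups can be read, since levels of different probe sets are not comparable; Ldha minus Ldhb and Hk2 minus Hk1 separate both kinds of tumor from normal thymus, Aldoa minus Aldoc is lower in tumors than on the other arrays, and the normal thymus points of the pairs with Aldoc or Slc16a3 rest on signals under the array median.

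Neighbouring pathways were described with lists of genes that are not members, whose counts stand beside 23.3% of all tested genes higher and 19.1% lower in tumors, and 23.1% and 20.2% in resistant tumors. With equal array medians, 15 of the 25 calls of named list genes in tumors were lost and 16 of the 25 in resistant tumors. Among other glycolytic and gluconeogenic enzymes, 7 of 16 tested genes rose and 1 fell in tumors, and 6 rose in resistant tumors, with medians of 0.64 and 0.83. Fbp1, the gluconeogenic phosphatase that opposes phosphofructokinase, had 1733, 1670.4 and 2422 in tumors, 859, 1823 and 1876 in resistant tumors, and 28.9, 33.5 and 38.2 in normal thymus. It rose by 5.84 ± 0.29 in tumors (limma adjusted p = 8.81e-07) and by 5.42 ± 0.29 in resistant tumors (adjusted p = 1.52e-06). Pck2, the mitochondrial enzyme that makes phosphoenolpyruvate, rose by 3.19 ± 0.27 and 3.01 ± 0.27, and Pcx, which carboxylates pyruvate, by 1.91 ± 0.18 and 1.83 ± 0.18. G6pc3, a glucose 6-phosphatase, rose by 2.16 ± 0.69 in tumors (limma adjusted p = 0.0297), a value of 1.21 without normal thymus 1 and a call lost without tumor 2 or tumor 3 (adjusted p = 0.0950 and 0.0853). Pgam2, the muscle mutase, was at least 1.42-fold lower in tumors (limma adjusted p = 0.00515).

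Of 5 tested genes of other glucose and lactate carriers, 2 rose in each kind of tumor. These were Slc2a8, a carrier of inner membranes, at 1.82 ± 0.23 and 1.49 ± 0.23, and Bsg, the chaperone that brings the lactate carriers to the cell surface, at 0.82 ± 0.19 and 0.73 ± 0.19. In the pentose phosphate pathway, 4 of 9 rose and 1 fell in tumors, and 2 rose and 1 fell in resistant tumors, where the share that rose is near that of all tested genes (23.1%). Tkt, the transketolase, rose by 0.58 ± 0.11 and 0.62 ± 0.11, Rpia by 0.57 ± 0.10 and 0.35 ± 0.10, and Pgls by 0.93 ± 0.31 in tumors, whereas H6pd, the dehydrogenase of the endoplasmic reticulum, changed by -1.07 ± 0.20 and -1.31 ± 0.20. Genes of pyruvate entry into mitochondria rose in 5 of 11 cases in tumors, beside 23.3% of all tested genes, and in 2 in resistant tumors, a share below the 23.1% of all tested genes. Pdp1 and Pdp2, phosphatases that switch pyruvate dehydrogenase on, rose by 0.72 ± 0.23 and 0.86 ± 0.24 in tumors and by 0.97 ± 0.23 and 0.71 ± 0.24 in resistant tumors, and Pdk2, a kinase that switches it off, rose by 0.67 ± 0.20 in tumors. When single arrays were left out, the tumor calls of Pgls, Pdp1 and Pdk2 were each lost in 4 of 9 cases and that of Pdp2 in 3, and the resistant tumor calls of Pdp2 in 5 and Rpia in 2 (limma adjusted p = 0.0510 to 0.133).

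Glycogen genes gave 1 of 9 higher and 2 lower in tumors, and 2 higher and 2 lower in resistant tumors, shares that do not stand out from those of all tested genes (23.3% higher and 19.1% lower in tumors, 23.1% and 20.2% in resistant tumors). Gys1, glycogen synthase, rose by 1.17 ± 0.22 and 1.04 ± 0.22, Gyg changed by -0.99 ± 0.19 in tumors, Ugp2 by 0.56 ± 0.17 in resistant tumors, and Phkg2, a phosphorylase kinase subunit, by -0.51 ± 0.17 and -0.75 ± 0.17. Pygl, glycogen phosphorylase, was the only gene of these lists called between resistant tumors and tumors. It had 21.2, 19.2 and 38.9 in resistant tumors, 70.9, 75.03 and 102 in tumors, and 45.4, 59.6 and 52.4 in normal thymus, a log2 change of -1.70 ± 0.29 between the tumor groups (limma adjusted p = 0.0470). That call was lost in 8 of 9 cases when single arrays were left out (limma adjusted p = 0.0749 to 0.225), with log2 values of -1.80 to -1.51, and was kept without resistant tumor 3. It was also lost after quantile normalization, with equal array medians, with no filter, with no trend, with the 2 groups alone and with the mean over probe sets. Against normal thymus Pygl changed by -1.05 ± 0.29 in resistant tumors (limma adjusted p = 0.0148), a call lost without resistant tumor 2 or normal thymus 2 (adjusted p = 0.0539 and 0.0607). The calls of Phkg2 in tumors and Ugp2 in resistant tumors were each lost in 4 of the 9 cases.

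Of 13 other tested genes of oxygen sensing, 2 were higher and 3 lower in tumors and 3 of each in resistant tumors, which is near the same shares of all tested genes. Siah2, a ubiquitin ligase of the prolyl hydroxylases, rose by 1.66 ± 0.23 and 1.32 ± 0.23, and P4htm, a transmembrane prolyl hydroxylase, by 0.81 ± 0.21 and 1.44 ± 0.21. Epas1, the HIF-2 alpha subunit, rose by 0.86 ± 0.30 in resistant tumors, a call lost in 7 of 9 cases when single arrays were left out (limma adjusted p = 0.0509 to 0.136). Arnt, the partner subunit of the HIF alpha chains, changed by -0.88 ± 0.19 and -0.65 ± 0.19, Cited2, which competes with HIF for its coactivator, by -0.99 ± 0.15 and -0.96 ± 0.15, and Siah1a by -0.64 ± 0.14 and -0.97 ± 0.14. The Arnt call in resistant tumors was lost in 2 of the 9 cases. With the mean over its probe sets Arnt was called in neither, at -0.51 in tumors (limma adjusted p = 0.0821) and -0.25 in resistant tumors (adjusted p = 0.378).

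Among other hypoxia response genes, 17 of 31 tested rose and 1 fell in tumors, and 15 rose and 2 fell in resistant tumors, with medians of 0.63 and 0.80. Stc1, the hormone stanniocalcin, had 892, 922 and 678 in tumors, 327, 504 and 370 in resistant tumors, and 33.9, 17.4 and 10.5 in normal thymus, and rose by 5.49 ± 0.36 and 4.42 ± 0.36. Mt2, a metallothionein, rose by 2.98 ± 0.13 and 3.01 ± 0.13, and Hmox1, heme oxygenase, by 2.95 ± 0.38 and 2.94 ± 0.38. Ak4, a mitochondrial adenylate kinase, was at least 5.30-fold higher in tumors and at least 6.70-fold higher in resistant tumors. Zfp36l1, an RNA-binding protein gene, changed by -1.12 ± 0.18 and -0.97 ± 0.18, and Kdm3a, a histone demethylase, by -0.53 ± 0.13 in resistant tumors, a call lost without 1 of the 9 arrays (limma adjusted p = 0.0516). No gene of these lists other than Pygl was called between resistant tumors and tumors, where 0.36% of all tested genes were.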

How the data were processed

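Total RNA of 9 samples was hybridised to Mouse430_2 arrays, per the labels. The deposited intensity values are MAS5 signals, per the submitters' processing notes, and were used on the scale the authors gave them. Signals under 1 were set to 1 before log2. Probe sets with 1 gene symbol were kept where they reached their own array's median on at least 3 of 9 arrays, and each gene was read from the probe set that was brightest on average over the log2 values. Groups were compared in 1 fit over all 9 arrays by limma 3.58.1 (R 4.3.3; lmFit, eBayes with an intensity trend, 6 residual degrees of freedom before moderation, two-sided), with Benjamini-Hochberg adjustment over 11671 genes, or over 20917 probe sets in a second fit. A gene was called at an adjusted p under 0.05. Fold changes are differences of mean log2 signals, and ± after a log2 change is the moderated SE of limma, with the spread pooled over all groups. A gene under the array median on every array of a group has only a bound there, given as "at least". The number of arrays limits the precision, and all 9 data columns belonged to a listed sample.

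Every member gene is named. Of each pathway list (other glycolytic and gluconeogenic enzymes, glucose and lactate carriers, pentose phosphate pathway, pyruvate entry into mitochondria, glycogen, oxygen sensing, other hypoxia response), up to 3 called genes with the largest increase and up to 3 with the largest decrease per comparison are named, where groups did not overlap. Marker lists cover thymocyte, thymic epithelial, endothelial, fibroblast, macrophage, erythroid, skeletal muscle and adipocyte genes. The members and lists were chosen with earlier results of these data known. Gene symbols come from the platform annotation, and 18032 of 18193 matched RefSeq. On simulated data, genes changed by 1 on the log2 scale were recovered in 49% to 57% of cases over the 3 comparisons. False calls were 2.67% to 5.92% of the calls. Far fewer genes were changed in the simulation than were called against normal thymus, so these shares do not give the power of those comparisons. Alternatives were quantile normalization, equal array medians, 50 added before log2, no filter, a stricter filter (75th percentile), no trend, 2 groups alone, the mean over probe sets, each array left out, and the replicate number or spike-in set as a block or the sets apart.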

Additional observations from a re-analysis of the deposited data

Results flagged for a closer look

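The control rows of Gapdh lie outside the tested data and held signal above the level of normal thymus. On the 3′ row the lowest of 5 arrays (tumors 2 and 3 and the 3 resistant tumors) was 3553.15, against a highest normal thymus array of 3011. On the 5′ row the lowest of the 5 was 3471.11, against 2559, and on the middle row it was 3589.12, against 2524. In tumor 1 the same rows read 3.80, 0.284 and 0.897 as deposited, and 3524, 3751 and 3769.9 once its control rows were put in name order, which is an assumption on their order.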

How the results depend on the processing

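Against normal thymus the count of called member genes was 21 to 25 in tumors and 20 to 22 in resistant tumors when each array was left out in turn, and that of probe sets was 40 to 48 and 35 to 45. With equal array medians 15 genes were called in tumors and 9 in resistant tumors, and 32 and 20 probe sets, with medians of the arrays from 13.9 to 25.8 before the step. Under the other alternatives with a test the counts were 22 to 26 genes in tumors and 20 to 26 in resistant tumors. Between resistant tumors and tumors the count of genes was 0 to 1 over the arrays left out, and that of probe sets 0 to 1, the gene being Aldoc without resistant tumor 3. On the 5 arrays with spike-in signal alone, 1 gene (Pfkfb3) and 2 probe sets (Pfkfb3 and Aldoa) were called. With the replicate number as a block, 25 genes were called in tumors, 26 in resistant tumors and 0 between them, and 50, 51 and 0 probe sets. The replicate numbers were not taken to pair the arrays. Of 9 same-numbered pairs 7 deviated together (r over 0.1), the lowest r was -0.337, and arrays of the same spike-in set correlated at 0.362 to 0.654. With the replicate block, calls of Aldoc, Slc16a1, Pfkfb3 and Egln1 were added in resistant tumors.

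Changes of sign concerned uncalled values. In tumors Slc16a1 was 0.042 with equal array medians, and Pdk1 was 0.16 with equal array medians, 0.19 on the arrays without spike-in signal and -0.27 to 0.12 over the arrays left out. In resistant tumors Pdk1 was -0.0039 to 0.24 over the arrays left out, -0.035 once the spike-in set was a block, -0.21 on the arrays without spike-in signal and -0.12 with the mean over probe sets. Car9 was -0.069 to 0.67 over the arrays left out and -0.19 on the arrays without spike-in signal. On the arrays with spike-in signal Pfkp was 0.035 and Pfkfb3 0.020. Aldoa minus Aldoc in resistant tumors, with Aldoc under the array median in normal thymus, was -0.60 to 0.54 over the arrays left out, 0.65 with 50 added before log2, 0.10 with the mean over probe sets and 1.32 on the arrays without spike-in signal. The cause of these changes was not tested. The arrays without spike-in signal alone gave values with no test. Over the alternatives with a test, calls higher in tumors numbered 0 to 5 in the pentose phosphate list and 0 to 7 in the pyruvate entry list, both 0 with equal array medians. Calls near the threshold are limited by 3 arrays per group, and signals near the array median have little above background.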
